A study of Homo sapiens with 15 samples.

Results

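Expression of the collagen chains was compared between *ANGPTL4* knockout and wild-type cells of 2 human clear cell renal cell carcinoma (ccRCC) lines, CAKi-1 and 786O. The chains were taken by name, as the genes whose symbol consists of COL, a type number, the letter A and a chain number. Earlier results of these data were known when the members were chosen. There were 35 such genes in the deposited expression values, 33 of 16296 genes for CAKi-1 and 29 of 16188 genes for 786O, with 27 measured in both lines, 6 for CAKi-1 alone and 2 for 786O alone. Another 9 of the 44 genes with such a name in GENCODE release 44 were not analysed here. *ANGPTL4* encodes a secreted inhibitor of lipases, and *VHL*, the tumor suppressor whose loss stabilizes hypoxia-inducible factors in ccRCC, is intact in CAKi-1 and mutant in 786O. The 15 libraries of poly(A) RNA comprised 4 CAKi-1 wild-type (WT), 5 CAKi-1 knockout, 3 786O WT and 3 786O knockout samples. The knockout cells are called A4KO here and KO in the labels and plots. In both lines they were made by transfection of Cas9 protein with a single guide RNA against *ANGPTL4*, after which *ANGPTL4* RNA was measured in single clones and those classed as knockout were mixed. The 786O WT cells are a mixture of clones from the same procedure that kept *ANGPTL4*. For CAKi-1 the labels describe the same kind of control, whereas the study's methods name the parental cells. With parental controls, loss of *ANGPTL4* and growth from selected clones cannot be told apart in CAKi-1, and the mixed clones of either line stand for only those clones. All groups were untreated and grown with 10% fetal bovine serum. Nothing says that the libraries of a group came from separate cultures, so p-values measure the spread between these libraries, which may be technical.

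Collagens are extracellular proteins whose chains wind around each other into a helix, and each type is built from its own set of chains. Fibrillar collagens form the cables of connective tissue, type IV forms the sheet-like network of basement membranes, type VI forms beaded filaments around cells, and type VII anchors basement membranes to the tissue beneath. Fibril-associated collagens decorate the surface of fibrils, transmembrane collagens are shed from the cell surface, and multiplexins carry a terminal fragment with effects on blood vessels, that of type XVIII being endostatin. In the kidney, type IV networks support the tubules and glomeruli, whereas fibrillar collagens are mostly made by fibroblasts.

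Levels are given in TPM, transcript numbers corrected for transcript length and scaled to a fixed library total. The log2 fold change is the difference of mean log2(TPM + 1), A4KO minus WT, and it understates the change of genes near or below 1 TPM. A gene was called when its log2 fold change was at least 1 in either direction with an adjusted p of at most 0.05, from limma over all genes of the line with Benjamini-Hochberg adjustment. *ANGPTL4* itself (chromosome 19, 8363289 to 8374370, plus strand, hg38) stood at 71.7 to 86.9 TPM in CAKi-1 WT, and fell to 7.26, 2.87, 2.87, 6.47 and 2.90 TPM in A4KO libraries 1 to 5. In 786O it fell from 20.6, 17.6 and 18.1 TPM to 2.19, 2.17 and 1.86 TPM, so every library matched its label. CAKi-1 A4KO libraries 1 and 4, which kept the most *ANGPTL4*, stood apart from the other 3 over all genes, with a mean absolute log2 difference of 0.239 to 0.278 to them, against 0.124 between each other and 0.122 to 0.141 among libraries 2, 3 and 5. For the collagen chains, values without these libraries are given where they change a call. In 786O the libraries of a group differed by 0.110 to 0.117 and those of different groups by 0.415 to 0.418.

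The epithelial markers *PAX8*, *KRT8* and *KRT18* were present in both lines, while *CDH1*, E-cadherin, was at or below 0.675 TPM in every library. Of 11 listed renal epithelial and ccRCC markers, 9 were measured in CAKi-1, with a summed level of 5307 to 6380 TPM in WT and 2797 to 3720 TPM in A4KO, and *KRT8* and *KRT18* were called lower. Much of this sum was *VIM*, a mesenchymal marker that ccRCC cells also express, at 3078 to 3297 TPM in WT and 2002 to 2515 TPM in A4KO. In 786O all 11 were measured, with sums of 5811 to 6020 and 4363 to 4413 TPM, of which *VIM* was 4426 to 4640 and 3401 to 3448 TPM. There *EPCAM*, *CDH6* and *CA9* were called lower and *PAX2* higher. The fibroblast list summed to 58.2 to 66.9 TPM in CAKi-1 WT and 47.7 to 58.0 TPM in A4KO over 8 of 10 markers, with 0 called and 4 lower at the adjusted p alone, without overlap. These were *ACTA2* (means of 24.9 TPM in WT and 18.1 TPM in A4KO), *FBLN1* (18.7 and 11.5 TPM), *LUM* (3.63 and 1.58 TPM) and *TCF21* (0.240 and 0.0839 TPM). *PDGFRB*, at 10.9 to 17.5 and 15.6 to 24.1 TPM, and *DCN*, at or below 1.24 TPM, did not pass. In 786O the 7 measured fibroblast markers summed to 29.6 to 31.8 TPM in WT and 17.3 to 22.0 TPM in A4KO, with *PDGFRB* called higher and *LUM* called lower. Also lower there at the adjusted p alone, without overlap, were *ACTA2* (means of 16.2 TPM in WT and 11.3 TPM in A4KO) and *FBLN1* (3.35 and 1.84 TPM). The same held for *THY1* (1.39 and 0.783 TPM) and *TCF21* (0.863 and 0.232 TPM), while *DCN* did not pass. The leukocyte marker *PTPRC* was at most 0.541 TPM in CAKi-1, and the endothelial marker *PECAM1*, the only measured member of 5 in that line, was called higher, at 0.209 to 0.555 TPM in WT and 1.54 to 6.17 TPM in A4KO. The leukocyte list summed to 56.3 to 59.9 TPM in CAKi-1 WT and 50.1 to 60.7 TPM in A4KO with 0 of 4 called. In 786O it summed to 42.8 to 44.1 and 20.2 to 21.5 TPM, with *CD68* called lower. Nearly all of these sums was *CD68*, at 55.0 to 59.5 TPM in CAKi-1 WT and 49.1 to 59.9 TPM in A4KO. In 786O *CD68* stood at 42.4 to 43.6 and 19.3 to 20.9 TPM. The endothelial list of 786O stayed at or below 1.58 TPM with 0 of 2 called. The part of these markers in the collagen results was not tested, and in such bulk samples fewer cells of a kind and less RNA per cell cannot be told apart.

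The sequence next to the transcription start is shown for the head-to-head pair *COL4A1* and *COL4A2* and for 4 chains that were called in opposite directions in the lines, *COL6A2*, *COL6A3*, *COL7A1* and *COL9A2*. RefSeq promoter windows (GRCh38.p14) were found for 28 of the 35 chains, in 39 windows, and not for *COL1A1*, *COL1A2*, *COL5A2*, *COL6A1*, *COL8A1*, *COL9A3* and *COL14A1*. The stretches lie on the minus strand at chr13:110307158-110307257 for the pair, on the plus strand at chr21:46097862-46098111 for *COL6A2*, and on the minus strand at chr2:237414329-237414414 for *COL6A3*, chr3:48595330-48595579 for *COL7A1* and chr1:40317389-40317536 for *COL9A2*. Each is read 5′ to 3′ toward the RefSeq start of its gene (of *COL4A1* for the pair), and bases that any annotated exon covers were left out. Outside exons, the stretch of the pair lies within the span that GENCODE gives *COL4A2*, and that of *COL9A2* within the span of *COL9A2* itself, while the other 3 lie before their genes. Capitals mark matches to the letters of a GC box (GGGCGG), of the CCAAT box, or of a TATA box (TATAAA), read on either strand, so that some runs in capitals are the reverse complement of these letters.
COL4A1-COL4A2: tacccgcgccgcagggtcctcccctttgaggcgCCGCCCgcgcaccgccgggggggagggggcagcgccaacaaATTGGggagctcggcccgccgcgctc
COL6A2: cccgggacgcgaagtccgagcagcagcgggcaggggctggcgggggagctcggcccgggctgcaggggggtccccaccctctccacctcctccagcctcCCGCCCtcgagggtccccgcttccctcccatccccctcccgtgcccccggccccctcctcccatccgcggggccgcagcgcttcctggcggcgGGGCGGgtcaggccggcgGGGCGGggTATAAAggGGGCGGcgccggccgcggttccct
COL6A3: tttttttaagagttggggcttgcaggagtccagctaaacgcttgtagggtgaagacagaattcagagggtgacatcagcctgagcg
COL7A1: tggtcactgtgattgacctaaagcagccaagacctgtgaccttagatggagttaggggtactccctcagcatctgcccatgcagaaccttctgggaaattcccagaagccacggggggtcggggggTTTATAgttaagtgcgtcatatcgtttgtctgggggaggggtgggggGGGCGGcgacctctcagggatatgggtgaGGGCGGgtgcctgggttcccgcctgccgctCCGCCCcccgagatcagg
COL9A2: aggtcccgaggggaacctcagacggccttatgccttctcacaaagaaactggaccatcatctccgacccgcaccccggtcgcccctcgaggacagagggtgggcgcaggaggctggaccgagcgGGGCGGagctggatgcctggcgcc

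The start sites of *COL4A1* and *COL4A2* point away from each other with 126 bases between them, 100 of which are shown, and hold 1 GC box and 1 CCAAT box. The type VI chains differed in base content, with 79.6% G or C and 4 GC boxes in the 250 bases before *COL6A2*, and 48.8% and 0 matches in the 86 bases that border the GENCODE span of *COL6A3*, which are 165 to 250 bases before its RefSeq start. Before *COL7A1* lay 3 GC boxes and a TATA box in 250 bases, and 1 GC box was found in the 148 bases of *COL9A2*, which are 103 to 250 bases before its RefSeq start and inside its GENCODE span. Over whole windows of 250 bases, a GC box was present in 56.4% of the 39 collagen windows and in 42.6% of all 35116, and a TATA box in 20.5% and 10.7%. For CCAAT the shares were 25.6% and 32.0%, for an AP-1 site (TGANTCA) 2.56% and 6.57%, and for the core of the hypoxia response element (ACGTG) 17.9% and 18.5%. These matches describe letters in a window and say nothing of whether a factor binds there.

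Most collagen RNA of both lines came from network, filament and anchoring chains rather than from fibrillar ones. In CAKi-1 WT the highest chains were *COL4A2* at 301.1 TPM, *COL4A1* at 211.9 TPM and *COL6A2* at 119.9 TPM, followed at 62.3 and 58.7 TPM by *COL8A1* and *COL6A1*, whose libraries overlapped. In 786O WT the order was *COL6A3* at 310.1 TPM, *COL7A1* at 199.7 TPM, *COL6A2* at 157.7 TPM and *COL4A2* at 95.4 TPM, followed at 78.9 and 78.5 TPM by *COL4A1* and *COL6A1*, whose libraries overlapped. Levels of the 2 lines were normalized separately and were not tested against each other. Chains under 1 TPM in both groups numbered 14 of 33 in CAKi-1 and 13 of 29 in 786O.

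In CAKi-1 A4KO cells 9 of the 33 chains were called, 8 higher and 1 lower. The higher ones were the type VI chains *COL6A1*, *COL6A2* and *COL6A3*, the anchoring fibril chain *COL7A1*, the fibril-associated chains *COL9A2*, *COL14A1* and *COL16A1*, and the fibrillar chain *COL1A1*, and the lower one was the transmembrane chain *COL17A1*. The 8 higher chains are 24.2% of those measured, against 2.21% of all genes called higher, and the lower one is 3.03%, against 1.12% of all genes. At an adjusted p of at most 0.05 alone, 13 chains were higher (39.4%, against 17.9% of all genes), 3 were lower (9.09%, against 21.1%) and 17 did not pass. The 2 groups of libraries were fully apart for 14 chains (42.4%), against 35.9% of all genes. The median log2 fold change of the 33 chains was 0.12, and that of all genes was -0.0078. Without A4KO libraries 1 and 4, 7 of the 9 calls were kept, *COL9A2* and *COL17A1* falling under the fold threshold. At the adjusted p alone, *COL15A1* (0.0777) and *COL19A1* (0.139) then no longer passed as higher. *COL4A1* (0.00311) and *COL18A1* (0.025) then passed as higher, and *COL4A5* (0.0276) and *COL5A1* (0.0326) as lower.

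In 786O A4KO cells 10 of the 29 chains were called, 2 higher and 8 lower. Here *COL6A1*, *COL6A2*, *COL6A3*, *COL7A1*, *COL9A2*, *COL14A1* and *COL16A1* were lower, together with *COL12A1*, while *COL4A1* and *COL18A1* were higher. The lower chains are 27.6% of those measured, against 5.19% of all genes called lower, and the higher chains are 6.90%, against 2.43%. At the adjusted p alone, 8 chains were higher (27.6%, against 27.5% of all genes), 10 were lower (34.5%, against 33.5%) and 11 did not pass, so at that threshold the chains were near the background. The libraries did not overlap for 18 chains (62.1%), against 66.9% of all genes, which is also near the background. The median log2 fold change was 0.013 for the chains and -0.030 for all genes.

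Summed over all chains, collagen RNA was 910.2 ± 36.3 TPM in CAKi-1 WT (SD, n = 4) and 1434 ± 31.8 TPM in A4KO (n = 5), with no overlap of the libraries. In 786O it was 1075 ± 29.0 TPM in WT and 753.4 ± 11.4 TPM in A4KO (n = 3 each), again with no overlap but in the other direction. Without its highest chain *COL6A3*, the sum of 786O was 764.9 ± 20.1 TPM in WT and 747.3 ± 11.5 TPM in A4KO, with overlap. Within that remainder falls and rises offset each other. Chains such as *COL7A1* (means of 199.7 and 79.0 TPM) and *COL6A2* (157.7 and 67.1 TPM) fell. Others such as *COL4A1* (78.9 and 189.3 TPM) and *COL4A2* (95.4 and 190.6 TPM) rose. In CAKi-1, without its highest chain *COL4A2*, the sum was 609.1 ± 22.0 and 1085 ± 22.0 TPM, without overlap. Leaving out the highest chain was chosen after the data were seen. The share of each class in that sum differed as well. In 786O the beaded filament chains made up 50.8% ± 0.337 of collagen RNA in WT and 14.2% ± 0.338 in A4KO, while the basement membrane chains made up 16.8% ± 0.221 and 52.1% ± 1.2. In CAKi-1 the beaded filament share was 20.8% ± 1.07 in WT and 34.3% ± 1.14 in A4KO, and the basement membrane share 58.0% ± 0.509 and 41.9% ± 3.52. These sums were not tested, and each is carried by its most abundant chains.

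**Figure D1:**
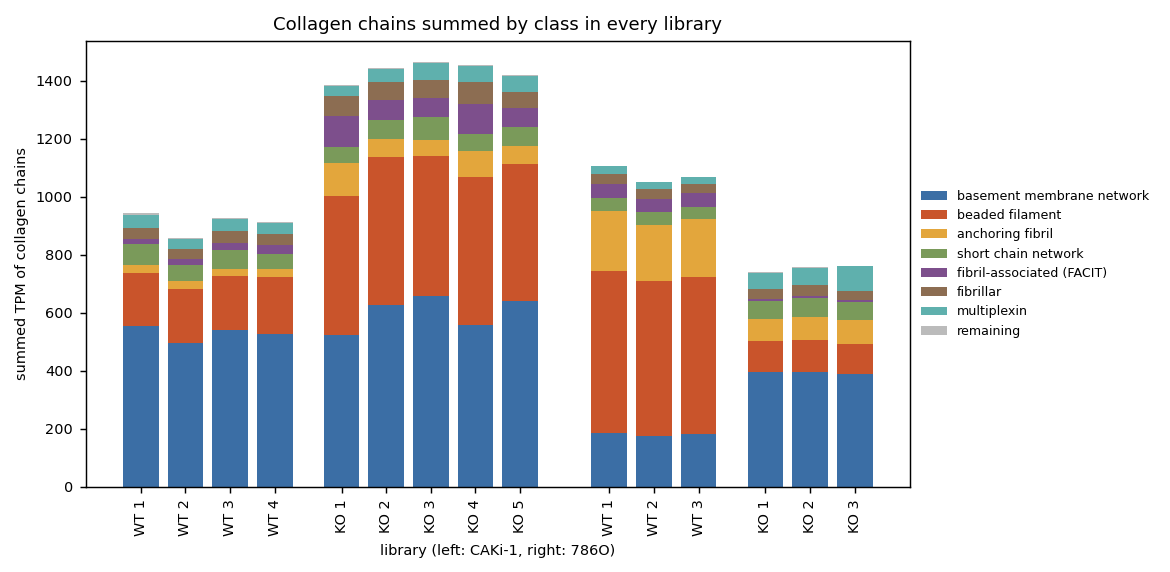
Summed TPM of collagen chains (y axis, starting at 0) in each of the 15 libraries (x axis; 9 of CAKi-1 on the left, 6 of 786O on the right), stacked by class, with the transmembrane class and *COL28A1* together as remaining. The sum is higher in every CAKi-1 KO library than in the CAKi-1 WT libraries and lower in every 786O KO library than in the 786O WT libraries, where the beaded filament segment shrinks and the basement membrane segment grows.

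Type VI collagen, the beaded filament that surrounds cells and ties them to basement membranes, moved in opposite directions in the 2 lines. Its *COL6A1* and *COL6A2* chains lie beside each other on chromosome 21 (45981770 to 46005050 and 46098112 to 46132848, plus strand), and *COL6A3* lies on chromosome 2 (237324003 to 237414328, minus strand). In CAKi-1 WT, *COL6A1* stood at 56.9, 58.3, 57.8 and 61.7 TPM, and in A4KO at 157.2, 180.5, 168.9, 172.4 and 169.6 TPM. The A4KO libraries were all far above the WT ones, by 2.89-fold (log2 fold change 1.52 ± 0.05 SE, adjusted p = 3.7e-07). Its neighbour *COL6A2* stood at 117.2, 115.7, 119.3 and 127.5 TPM in WT, then at 301.1, 295.7, 277.7, 312.1 and 261.5 TPM in A4KO, 2.42-fold higher (1.26 ± 0.06, adjusted p = 2.7e-06). *COL6A3* stood at 10.2, 12.7, 9.81 and 7.86 TPM in WT compared with 21.7, 37.2, 35.7, 24.4 and 40.9 TPM in A4KO (1.54 ± 0.20, adjusted p = 4.4e-04). The groups did not overlap for any of these 3 chains, and for *COL6A3* the A4KO libraries 1 and 4 were the lowest of their group, the log2 fold change being 1.82 without them.

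In 786O the same chains fell, and *COL6A3* fell furthest of all chains. *COL6A1* went from 79.4, 78.5 and 77.8 TPM to 34.5, 35.1 and 32.6 TPM (log2 fold change -1.18 ± 0.04, adjusted p = 3.2e-06). *COL6A2* went from 159.4, 156.0 and 157.8 TPM to 66.7, 67.6 and 67.0 TPM (-1.22 ± 0.03, adjusted p = 1.3e-06). Both pairs of groups were well apart, with falls of 2.31-fold and 2.35-fold. *COL6A3*, the most abundant collagen chain of the WT cells, went from 319.9, 302.5 and 307.8 TPM to 6.18, 6.01 and 5.96 TPM, a 51.3-fold fall (-5.46 ± 0.04, adjusted p = 3.5e-08). *COL6A6*, a chain that can take the place of the *COL6A3* product, was at or below 0.011 TPM on average in both groups of 786O and had no row for CAKi-1.

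The ratio of *COL6A3* to *COL6A1* did not overlap between the groups of 786O, while that of *COL6A1* to *COL6A2* did. The latter was 0.493 to 0.503 in 786O WT and 0.487 to 0.518 in A4KO (exact permutation test, two-sided, p = 0.4, 3 against 3). *COL6A3* was 4.03, 3.85 and 3.96 times *COL6A1* in 786O WT and 0.179, 0.171 and 0.183 times *COL6A1* in A4KO. The difference of the log2 ratio was -4.47, and its exact permutation p of 0.1 is the smallest that 3 against 3 libraries allow (0.15 adjusted over the 3 pairs measured in 786O). In CAKi-1 the *COL6A3* to *COL6A1* ratio was 0.127 to 0.218 in WT and 0.138 to 0.241 in A4KO, overlapping (exact p = 0.667), so the 786O A4KO values lay within the range seen in CAKi-1. The *COL6A1* to *COL6A2* ratio of CAKi-1 was 0.484 to 0.504 in WT and 0.522, 0.610, 0.608, 0.552 and 0.649 in A4KO. All 5 A4KO values exceeded the WT values, with an exact p of 0.0159, the smallest that 4 against 5 allow, and 0.0635 after adjustment over 4 pairs.

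**Figure D2:**
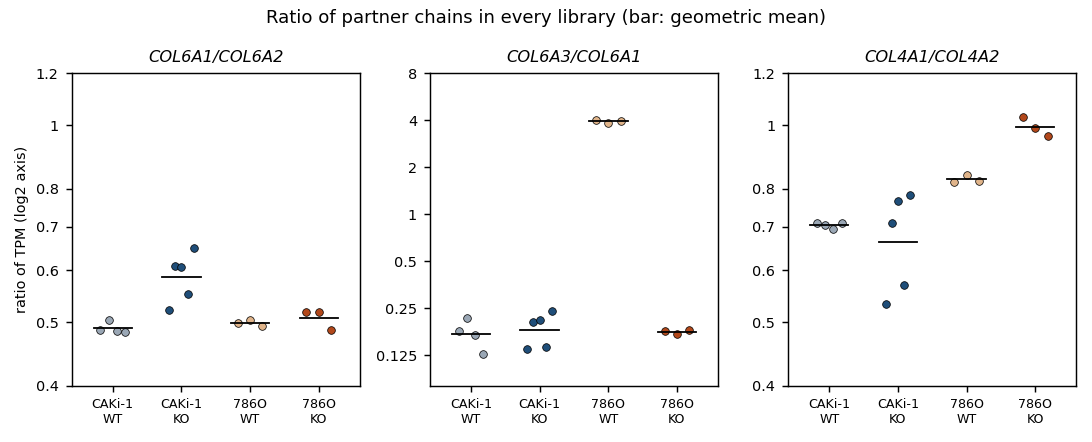
Ratio of the TPM of partner chains (y axis, log2 scale) in each library (points) of the 4 groups (x axis), with a bar at the geometric mean. The *COL6A3* to *COL6A1* ratio is 3.85 to 4.03 in 786O WT and below 0.25 in the other 3 groups, whereas *COL6A1* to *COL6A2* stays between 0.484 and 0.649 in all libraries.

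*COL7A1*, the single chain of type VII collagen, which forms the anchoring fibrils below epithelia, lies on chromosome 3 (48564073 to 48595329, minus strand) and followed the type VI chains. In CAKi-1 it stood at 28.3, 25.6, 24.1 and 27.2 TPM in WT against 113.4, 60.7, 55.9, 89.5 and 61.2 TPM in A4KO. Every A4KO library exceeded every WT library, libraries 1 and 4 being the highest (log2 fold change 1.45 ± 0.20, adjusted p = 5.6e-04, and 1.14 without those 2). In 786O it fell from 207.2, 193.2 and 198.8 TPM to 76.4, 80.0 and 80.7 TPM, 2.53-fold, again with no overlap (-1.33 ± 0.04, adjusted p = 2.9e-06).

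The fibril-associated (FACIT) chains, which coat fibrils and link them to the surrounding matrix, held the largest log2 fold change of CAKi-1, that of *COL14A1*, and the 3 largest falls of 786O after *COL6A3*. Of 7 measured in CAKi-1, 3 rose (against 2.21% of all genes) and 0 fell, and 5 were higher at the adjusted p alone (against 17.9%). In 786O 4 of 5 fell, against 5.19% of all genes, and 0 rose. Their sum was 22.6 ± 5.29 TPM in CAKi-1 WT and 82.6 ± 20.8 TPM in A4KO, and 47.2 ± 0.904 and 5.61 ± 0.357 TPM in 786O. *COL14A1*, whose product binds fibrils and helps to set their diameter, lies on chromosome 8 (120059780 to 120373573, plus strand). It was near 1 TPM in CAKi-1 WT (0.798, 1.15, 0.984 and 1.08) and stood at 22.9, 10.1, 10.1, 20.8 and 10.3 TPM in A4KO, 14.8-fold higher on average. Libraries 1 and 4 were well above the other 3 A4KO libraries, which were close to each other and all above WT (2.90 ± 0.25, adjusted p = 5.4e-05, and 2.49 without those 2). In 786O it fell from 17.0, 15.8 and 16.3 TPM to 3.22, 2.99 and 3.27 TPM (-2.06 ± 0.05, adjusted p = 8.5e-07).

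*COL16A1* (chromosome 1, 31652263 to 31704319, minus strand) stood at 11.2, 11.4, 13.7 and 21.9 TPM in CAKi-1 WT and at 71.5, 48.7, 46.3, 68.7 and 45.0 TPM in A4KO. The groups were apart although WT library 4 was well above the other WT libraries (1.89 ± 0.22, adjusted p = 2.2e-04, and 1.66 without A4KO libraries 1 and 4). In 786O it fell from 3.81, 4.91 and 4.56 TPM to 0.611, 0.926 and 0.680 TPM (-1.64 ± 0.10, adjusted p = 2.8e-05). *COL9A2*, a chain of the type IX collagen of cartilage (chromosome 1, 40300489 to 40317813, minus strand), was low in CAKi-1, at 0.371, 0.315, 0.647 and 1.23 TPM in WT and 3.8, 2.14, 1.77, 4.05 and 1.34 TPM in A4KO. Its lowest A4KO library was only just above the highest WT library (1.11 ± 0.26, adjusted p = 0.00812), and the call was lost without A4KO library 1 (0.99), without library 4 (0.97), without both (0.77) and with the local shift removed (0.98), that is, with the median change of the genes on either side of it in the genome taken off. In 786O it fell from 19.4, 18.5 and 17.9 TPM to 1.18, 0.706 and 1.12 TPM, 18.6-fold (-3.30 ± 0.10, adjusted p = 2.0e-06).

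*COL12A1*, a FACIT chain of dense connective tissue (chromosome 6, 75084326 to 75206267, minus strand), was called in 786O alone. There it fell from 7.62, 6.87 and 7.69 TPM to 0.253, 0.383 and 0.357 TPM, a ratio of 22.4 between the means (-2.66 ± 0.06, adjusted p = 8.7e-07). In CAKi-1 it stood at 6.16, 5.53, 6.35 and 5.56 TPM in WT and 7.60, 7.61, 8.29, 9.22 and 8.52 TPM in A4KO. These groups did not overlap, but the log2 fold change of 0.42 ± 0.07 was under the fold threshold (adjusted p = 0.00138).

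**Figure D3:**
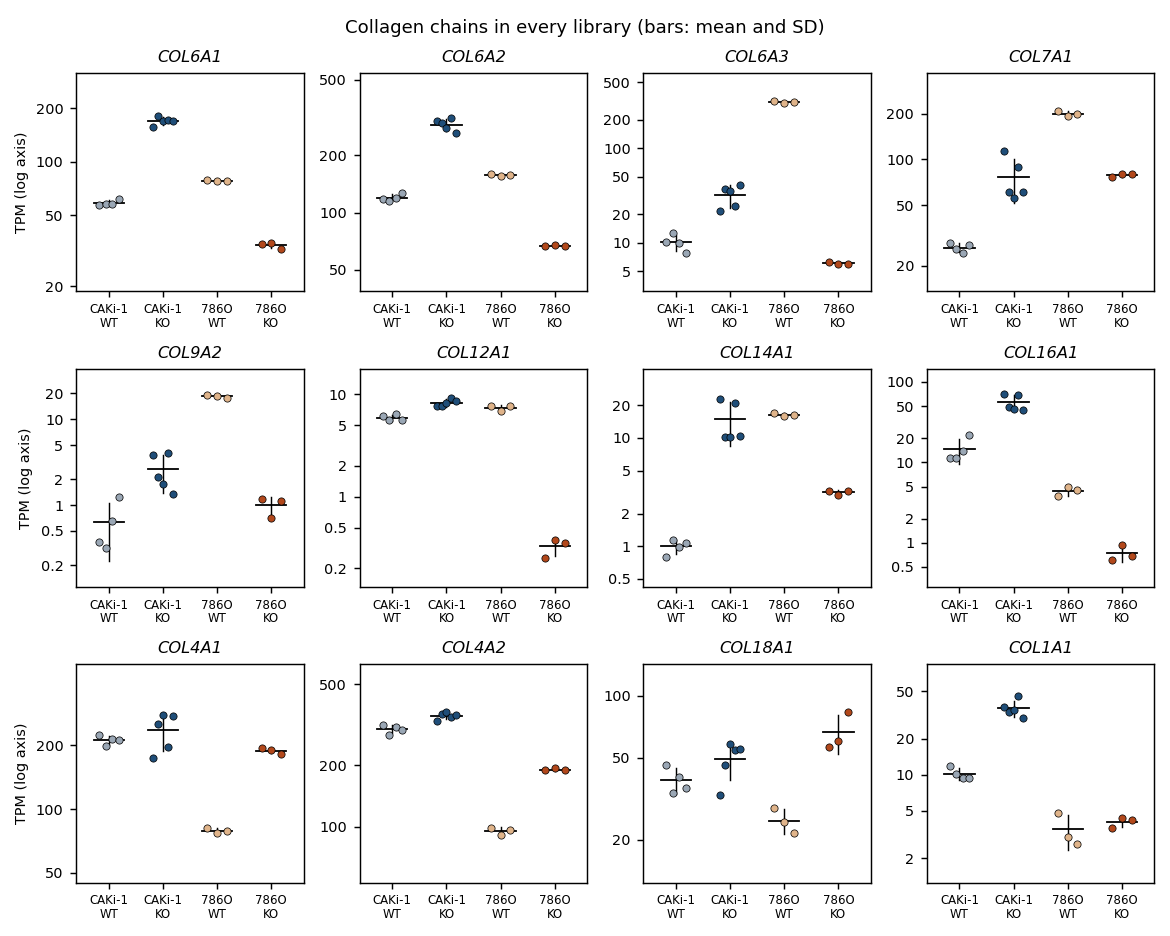
TPM (y axis, log scale, a separate range in each panel) of 12 collagen chains in each library (points) of the 4 groups (x axis), with bars for the mean and SD. The chains of the top 2 rows are higher in CAKi-1 KO and lower in 786O KO than in WT, *COL12A1* by less than the fold threshold in CAKi-1, whereas *COL4A1*, *COL4A2* and *COL18A1* are higher in 786O KO and *COL1A1* is higher in CAKi-1 KO.

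Of the chains of type IV collagen, the scaffold of basement membranes, 1 of 5 was called higher in 786O (against 2.43% of all genes) and 0 of 6 were called in CAKi-1. In 786O 4 of the 5 were higher at the adjusted p alone, against 27.5% of all genes. *COL4A1* and *COL4A2*, the pair of chains found in every basement membrane, are transcribed in opposite directions from chromosome 13 (110148963 to 110307157, minus strand, and 110305812 to 110513209, plus strand). In 786O *COL4A1* rose from 81.0, 76.7 and 79.0 TPM to 194.0, 190.8 and 183.2 TPM, 2.40-fold (1.25 ± 0.04, adjusted p = 2.9e-06). *COL4A2* stood at 98.8, 91.2 and 96.2 TPM in WT compared with 188.5, 192.9 and 190.4 TPM in A4KO, which is 2.0-fold and just under the fold threshold (0.99 ± 0.04, adjusted p = 7.2e-06). It was called when libraries were scaled to the same median (1.03) and without WT library 1 (1.02). Both chains were well separated between the groups. Genes around this locus were higher too in 786O A4KO, by a local median shift of 0.61 on the log2 scale, and with that shift taken off *COL4A1* was at 0.64 and *COL4A2* at 0.38, neither called. *COL4A5*, a chain of a network enriched in kidney (chromosome X, 108439838 to 108697545, plus strand), stood at 6.37, 5.61 and 5.48 TPM in 786O WT and 11.1, 11.6 and 13.1 TPM in A4KO, with no overlap (0.92 ± 0.08, adjusted p = 1.1e-04), and was called at a pseudocount of 0.1 (1.03) or 0.01 (1.04) and after quantile normalization (1.09). Its local shift was -0.015.

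In CAKi-1 none of the 6 type IV chains was called, and 1 was higher and 1 lower at the adjusted p alone, against 17.9% and 21.1% of all genes. *COL4A2*, the highest collagen chain of the line, stood at 281.5 to 314.5 TPM in WT and 328.8 to 364.7 TPM in A4KO, without overlap (0.22 ± 0.05, adjusted p = 0.0106). *COL4A1* stood at 223.2, 197.8, 214.6 and 212.0 TPM in WT and 175.0, 254.1, 279.5, 196.5 and 275.3 TPM in A4KO. Libraries 1 and 4 lay below all WT libraries and the other 3 lay above them, so the groups overlapped (0.13 ± 0.14, adjusted p = 0.496), and without those 2 libraries the value was 0.35 (adjusted p = 0.00311). *COL4A5* split the other way, at 12.6 to 14.5 TPM in WT, 18 and 17 TPM in A4KO libraries 1 and 4, and 11.4 to 11.7 TPM in libraries 2, 3 and 5 (0.03 ± 0.14, adjusted p = 0.885). Without libraries 1 and 4 its value was -0.19 (adjusted p = 0.0276). The ratio of *COL4A1* to *COL4A2* was 0.694 to 0.709 in CAKi-1 WT and 0.532 and 0.571 in A4KO libraries 1 and 4, against 0.709 to 0.781 in the other A4KO libraries (exact permutation p = 0.54 over all). In 786O it was 0.819 to 0.840 in WT and 0.962 to 1.03 in A4KO, an exact permutation p of 0.1, which is the smallest possible (0.15 adjusted).

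*COL4A3* and *COL4A4*, the partners of *COL4A5* in the network of the glomerulus, had group means of at most 0.574 TPM in either line. *COL4A6* was at 0.959 TPM in CAKi-1 WT and 0.724 TPM in A4KO and had no row for 786O. The abundant type IV chains of these cells were those of the general basement membrane network.

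Fibrillar collagen was scarce, and *COL1A1*, the main chain of type I collagen, was its only called member at the main settings. It lies on chromosome 17 (50184101 to 50201632, minus strand). In CAKi-1 it rose from 11.8, 10.2, 9.35 and 9.46 TPM to 36.7, 33.8, 35.1, 45.2 and 30.0 TPM, 3.54-fold, with a wide gap between the groups (1.72 ± 0.11, adjusted p = 1.4e-05, and 1.6 without A4KO libraries 1 and 4). In 786O it stood at 4.82, 3.00 and 2.66 TPM in WT and 3.58, 4.35 and 4.17 TPM in A4KO, which overlapped through WT library 1 (0.19 ± 0.18, adjusted p = 0.393). Without that library the groups were apart and the value was 0.39 (adjusted p = 0.013), under the fold threshold. *COL1A2*, whose product joins that of *COL1A1* in ordinary type I collagen, had group means of at most 0.132 TPM in both lines.

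Other fibrillar chains showed no call. *COL27A1*, a fibrillar chain of cartilage, stood at 11.9 to 18.1 TPM in CAKi-1 WT and 14.0 to 17.9 TPM in A4KO (0.0035 ± 0.11, adjusted p = 0.984), and at 25.4 to 27.4 and 27.0 to 30.7 TPM in 786O (0.11 ± 0.06, adjusted p = 0.171). *COL5A1*, which helps to start fibrils, stood at 7.82 to 10.4 TPM in CAKi-1 WT and 7.19 to 11.8 TPM in A4KO, the A4KO libraries 1 and 4 being above WT and the other 3 below it (-0.06 ± 0.16, adjusted p = 0.80). Without libraries 1 and 4 the value of *COL5A1* was -0.29 (adjusted p = 0.0326). Its partner *COL5A2* was at 2.44 to 4.28 TPM in WT and 3.14 to 3.94 TPM in A4KO. In 786O both type V chains were under 1 TPM in both groups, and *COL5A1* was lower in A4KO at the adjusted p alone (0.924 and 0.358 TPM, log2 fold change -0.50). It was called lower at a pseudocount of 0.1 (-1.21) or 0.01 (-1.44) and with the local shift removed (-1.07).

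The multiplexin *COL18A1*, the precursor of endostatin, lies upstream of the type VI pair on chromosome 21 (45405165 to 45513720, plus strand) and moved against it in 786O. It rose there from 28.6, 24.3 and 21.5 TPM to 56.4, 60.4 and 83.1 TPM, 2.69-fold and without overlap, with library 3 the highest (1.38 ± 0.17, adjusted p = 5.7e-04). In CAKi-1 it stood at 46.0, 33.8, 40.5 and 35.6 TPM in WT against 32.9, 46.1, 58.1, 54.8 and 54.9 TPM in A4KO. Library 1 was lower than every WT library and the remaining 4 were higher than every WT library (0.32 ± 0.17, adjusted p = 0.163). Without A4KO libraries 1 and 4 the value was 0.44, past the adjusted p (0.025) but not the fold threshold.

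*COL8A1*, the short network chain of vessel walls and the cornea, was among the more abundant chains of both lines. In 786O it stood at 43.9, 42.2 and 42.4 TPM in WT and 63.7, 67.1 and 63.9 TPM in A4KO, which is 1.52-fold and under the fold threshold although the groups were apart (0.59 ± 0.04, adjusted p = 4.0e-05). In CAKi-1 the range was 54.8 to 70.3 TPM in WT and 54.4 to 78.8 TPM in A4KO (0.05 ± 0.12, adjusted p = 0.749). Its partner *COL8A2* stayed at or below 0.202 TPM on average in all 4 groups.

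*COL17A1*, the collagen of hemidesmosomes, which fasten epithelial cells to the basement membrane, was the only chain called lower in CAKi-1. It stood at 1.74, 1.25, 2.17 and 1.16 TPM in WT, then at 0.0835, 0.398, 0.222, 0.0655 and 0.252 TPM in A4KO, with no overlap (-1.09 ± 0.13, adjusted p = 2.5e-04). At such levels the value depended on the pseudocount (-3.12 at 0.01) and the call on the settings, being -0.90 with the local shift removed, -0.98 without WT library 3 and -0.98 without A4KO libraries 1 and 4. In 786O *COL17A1* stood at 0.119 to 0.371 TPM in WT and 0.472 to 1.11 TPM in A4KO (0.45 ± 0.15, adjusted p = 0.0429), and was called only at smaller pseudocounts. The value was 0.28 without A4KO library 3, and the adjusted p passed 0.05 without WT library 1 (0.108), WT library 2 (0.121) or A4KO library 2 (0.0511) and with the local shift removed (0.0533). *COL13A1*, another membrane-bound collagen, was at 1.01 to 1.12 TPM in CAKi-1 WT and 1.40 to 2.46 TPM in A4KO (0.55 ± 0.11, adjusted p = 0.00423). *COL28A1* was at 0.10 to 0.583 TPM in 786O WT and 1.12 to 2.05 TPM in A4KO (0.93 ± 0.18, adjusted p = 0.0046), and below 1 TPM on average in CAKi-1. In 786O it was called higher at a pseudocount of 0.1 (2.12) or 0.01 (2.54), after quantile normalization (1.05), without WT library 1 (1.08) and without A4KO library 3 (1.04).

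The chains under 1 TPM in both groups had means of 0.0421 to 0.973 TPM in CAKi-1 and 0.00865 to 0.924 TPM in 786O. Their log2 fold changes lay between -0.39 and 0.51 in CAKi-1 and between -0.50 and 0.45 in 786O, and at a pseudocount of 1 such levels cannot reach the fold threshold. At the adjusted p alone 4 of 14 passed in CAKi-1 (28.6%, against 13.5% of all genes under 1 TPM in both groups) and 4 of 13 in 786O (30.8%, against 22.8%). At smaller pseudocounts *COL15A1* (1.33 at 0.1) and *COL4A4* (-1.20 at 0.1 and -1.57 at 0.01) were called in CAKi-1, and *COL8A2* (-1.11 at 0.1 and -2.23 at 0.01), *COL5A1* (-1.21 and -1.44) and *COL17A1* (1.25 and 1.58) in 786O. They included *COL9A3*, the partner of *COL9A2* in type IX collagen, at 0.0612 TPM in CAKi-1 WT and 0.142 TPM in A4KO.

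For several classes the effect of the knockout had opposite directions in the lines. A limma interaction term over the 15247 genes measured in both lines, adjusted over all of them, called a difference of at least 1 for 13 of the 27 shared chains (48.1%), against 12.8% of all genes. Of these, 7 were called in both lines in opposite directions, *COL6A1*, *COL6A2*, *COL6A3*, *COL7A1*, *COL9A2*, *COL14A1* and *COL16A1*, which is 25.9% of the shared chains, against 0.649% of all genes (99 genes). No chain was called in both lines in the same direction, as were 0.40% of all genes (61 genes), a share too low to read anything from 0 of 27. At the adjusted p alone, 11 chains (40.7%) and 16% of all genes had effects of opposite sign in both lines. Of these 11, 8 were higher in CAKi-1 A4KO and lower in 786O A4KO, the 7 named above and *COL12A1*. The other 3 ran the opposite way at low levels, *COL4A4* at -0.39 in CAKi-1 and 0.11 in 786O, *COL17A1* at -1.09 and 0.45 (the latter near the threshold of the adjusted p, as given above), and *COL28A1* at -0.39 and 0.93.

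The difference of the log2 fold changes, CAKi-1 minus 786O, was widest for *COL6A3* at 7.0 ± 0.26 (SE, adjusted p = 1.1e-10), followed by *COL14A1* at 4.96 ± 0.33 and *COL9A2* at 4.41 ± 0.34. It was 3.53 ± 0.29 for *COL16A1*, 3.08 ± 0.10 for *COL12A1*, 2.77 ± 0.26 for *COL7A1*, 2.70 ± 0.07 for *COL6A1* and 2.48 ± 0.08 for *COL6A2*. Below *COL6A3* the order depended on the pseudocount. At 0.1 and 0.01 *COL9A2* (6.03 and 6.33) lay above *COL14A1* (6.01 and 6.15), and *COL12A1* (4.61 and 4.94) above *COL16A1* (4.4 and 4.55). Basement membrane chains differed in the other direction, *COL4A1* by -1.12 ± 0.19 (adjusted p = 1.7e-04), with *COL4A2* at -0.78 ± 0.07 and *COL4A5* at -0.89 ± 0.20 past the adjusted p alone. The *COL4A5* difference was called without CAKi-1 A4KO libraries 1 and 4 (-1.12), with the local shift removed (-1.04) and at a pseudocount of 0.01 (-1.01). The *COL4A1* difference was -0.60 with the local shift removed and -0.91 without CAKi-1 A4KO libraries 1 and 4, under the threshold in both cases. With the local shift removed the *COL4A2* difference was -0.23. That of *COL18A1*, -1.06 ± 0.26 (adjusted p = 0.00324), fell under it without CAKi-1 WT library 1 (-0.98), CAKi-1 A4KO library 1 (-0.93), 786O WT library 3 (-0.97) or 786O A4KO library 3 (-0.90), and without CAKi-1 A4KO libraries 1 and 4 together (-0.94). The lines also differ in *VHL* and, by the study's methods, in where their WT cells came from, and the part of either in these differences cannot be told apart.

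**Figure D4:**
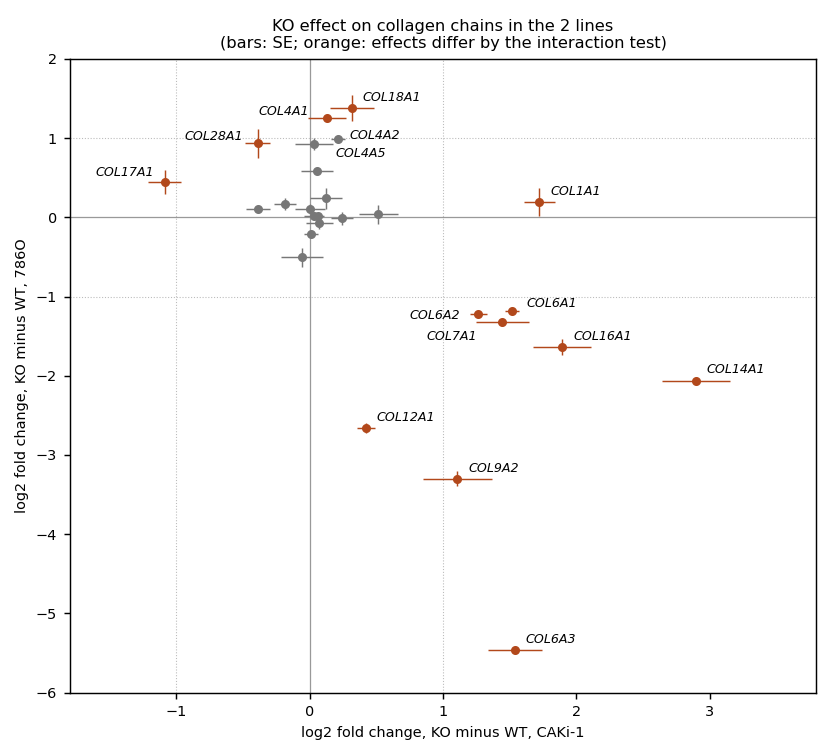
Log2 fold change, KO minus WT, of the 27 shared collagen chains in CAKi-1 (x axis) and 786O (y axis), with SE bars, dotted lines at the fold threshold, and orange for the 13 chains whose effects differ by the interaction test. The 7 chains called in opposite directions lie in the lower right, *COL6A3* lowest at 1.54 and -5.46, and *COL4A1* and *COL18A1* lie near the top.

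Most genes that make and handle collagen were not called in either line. These 51 genes cover the enzymes that hydroxylate and glycosylate chains, the chaperones and export factors, the proteinases that remove propeptides, the cross-linking enzymes, and the receptors. In CAKi-1, 7 were called higher (13.7% of 51, against 2.21% of all genes) and 0 lower, and at the adjusted p alone 20 were higher (39.2%, against 17.9%), 9 lower (17.6%, against 21.1%) and 22 did not pass. In 786O, 2 were called higher (3.92%, against 2.43%) and 6 lower (11.8%, against 5.19%), and at the adjusted p alone 12 were higher (23.5%, against 27.5%), 27 lower (52.9%, against 33.5%) and 12 did not pass. Their median log2 fold change was 0.24 in CAKi-1 and -0.20 in 786O.

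Of the prolyl 3-hydroxylase family in CAKi-1, *P3H1* rose from 35.0 ± 2.38 to 75.2 ± 8.94 TPM, *P3H3* from 3.29 ± 0.278 to 9.14 ± 0.842 TPM and *P3H4*, a member that is not itself an active hydroxylase, from 19.6 ± 1.28 to 44 ± 6.29 TPM. Of these, *P3H1* and *P3H4* were just under the fold threshold without A4KO libraries 1 and 4 (0.96 and 0.99) and with the local shift removed (0.93 and 0.95). *FKBP10*, a chaperone of procollagen, rose from 95.1 ± 1.23 to 243.0 ± 48.2 TPM, *BMP1*, the proteinase that removes the carboxyl propeptide, from 36.8 ± 1.69 to 96.1 ± 16.1 TPM, and *MRC2*, a receptor that takes up collagen, from 145.5 ± 8.46 to 403.3 ± 140.3 TPM. In 786O these genes stood at log2 fold changes of -0.35 to 0.16, with none called.

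At the pseudocount of 1, the largest log2 fold change among the handling genes of 786O was that of *LOX*, lysyl oxidase, which cross-links collagen. It stood at 19.5, 20.7 and 18.7 TPM in 786O WT and fell to 0.303, 0.587 and 0.629 TPM in A4KO (-3.78 ± 0.09, adjusted p = 1.1e-06). In CAKi-1 it stood at 20.8 to 30.2 TPM in WT and 30.1 to 52.4 TPM in A4KO, which overlapped slightly (0.61 ± 0.18, adjusted p = 0.0231). The ratio of means in 786O was larger for *ADAMTS14*, 106 against 38.8 for *LOX*. *ADAMTS14* was under 1 TPM there (0.913 TPM in WT and 0.00864 TPM in A4KO) and not called (-0.92, adjusted p = 2.3e-05). *TGM2*, a transglutaminase that cross-links matrix proteins, was called in both lines in opposite directions, at 37.0 to 63.4 TPM in CAKi-1 WT and 282.7 to 311.5 TPM in A4KO (2.58 ± 0.13, adjusted p = 3.4e-06), and at 110.1 to 113.7 TPM in 786O WT and 38.9 to 41.5 TPM in A4KO (-1.45 ± 0.04, adjusted p = 1.5e-06). *LOXL3* fell in 786O from 3.12 ± 1.15 to 0.736 ± 0.291 TPM, a call that was lost with the local shift removed (-0.96).

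The remaining calls in 786O were among the genes of hydroxylation, of propeptide removal, and of folding and export. *P4HA3*, a prolyl hydroxylase subunit, fell from 3.50 ± 0.211 to 0.747 ± 0.449 TPM, *TLL2*, a relative of *BMP1*, from 9.15 ± 0.593 to 2.01 ± 0.144 TPM, and *PCOLCE2*, which enhances propeptide removal, from 21.5 ± 1.09 to 3.54 ± 0.621 TPM. *TMEM38B*, an ion channel of the endoplasmic reticulum needed for collagen folding, rose from 14.5 ± 0.328 to 34.2 ± 2.03 TPM, and *ADAMTS3*, a procollagen amino-propeptidase, from 5.88 ± 0.465 to 12.9 ± 0.531 TPM. Both calls were lost with the local shift removed (0.82 and 0.55), and that of *ADAMTS3* also without WT library 2 (0.98), WT library 3 (0.99) or A4KO library 2 (0.99). In CAKi-1 the same 5 genes lay between -0.95 and 0.60 and were not called. At the adjusted p alone, *PCOLCE2* (-0.95, adjusted p = 0.00197), *P4HA3* (-0.57, 5.7e-04) and *ADAMTS3* (0.60, 0.00103) moved in the same direction as in 786O, without overlap. *TLL2* and *TMEM38B* did not pass in CAKi-1.

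**Figure D5:**
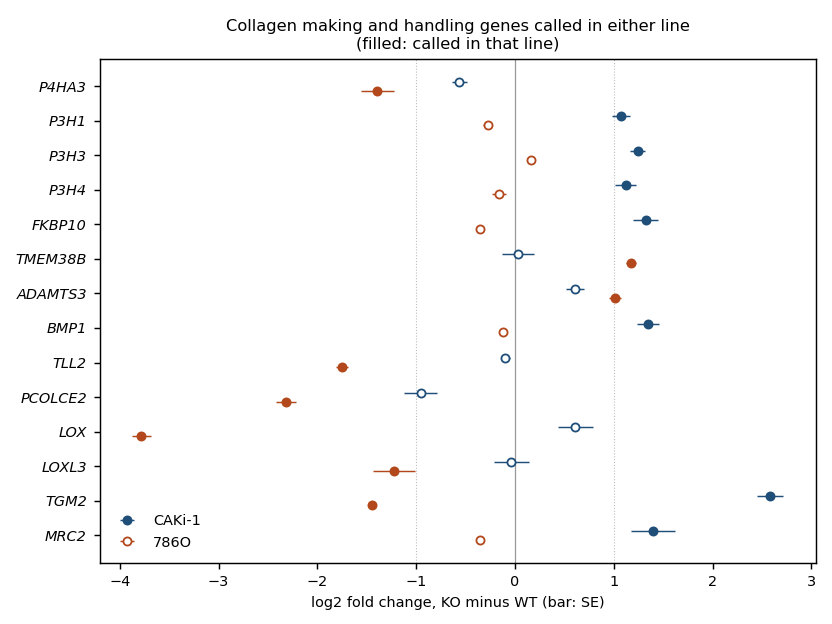
Log2 fold change, KO minus WT (x axis, bars for SE), of the collagen making and handling genes called in either line (y axis), in CAKi-1 (blue) and 786O (orange), filled where called. *TGM2* is called in both lines, higher in CAKi-1 at 2.58 and lower in 786O at -1.45, and *LOX* is lowest, at -3.78 in 786O.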

How the data were processed

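Poly(A) RNA of 15 libraries was sequenced by the authors with paired reads of 150 bases at a stated depth of 3000000 reads per sample. Kallisto was run by the authors against hg38, and 1 matrix per line was deposited. Its values are taken as TPM per gene because each library sums to between 961437 and 973887. The sources used here do not give how transcripts were combined or why some genes are absent. No value is exactly 0, and TPM keeps no read number, so the depth behind a value is unknown and no counting interval is given. The labels name RPMI medium and the study's methods DMEM.

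The deposited TPM were put on the scale log2(TPM + 1). For each line A4KO was compared with WT by limma 3.58.1 in R 4.3.3 (lmFit and eBayes, two-sided), without a filter or a replicate block, and p-values were adjusted by Benjamini-Hochberg over the whole table. The difference between lines was the interaction term over 15247 genes in all 15 libraries. Partner chains (10 pairs considered, used where both had means of at least 1 TPM) were compared by exact permutation of libraries. The fits were tested on simulated data. Named were the chains called in a line or reaching 10 TPM in a group, and more briefly those reaching 1 TPM. Of the handling genes, those called in a line were named, with *ADAMTS14* for its ratio, and *ANGPTL4* as the targeted gene. The classes, gene lists, markers and members were chosen with earlier results of these data known. Neighbouring genes were the 25 on each side with a mean log2 of at least 1, whose median deviation was taken off in each library. Replicate numbers did not pair the libraries, with correlations of the deviations of same-numbered libraries from -0.066 to 0.15 in CAKi-1 and from -0.056 to 0.014 in 786O. Positions are from GENCODE release 44 on hg38, and upstream sequences from RefSeq.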

Additional observations from a re-analysis of the deposited data

Results flagged for a closer look

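In CAKi-1 A4KO library 1, *COL27A1* stood at 17.9 TPM, apart from the 14.0 to 14.6 TPM of the other 4 libraries of its group by more than Dixon's critical value. This was 1 library in 32 groups of 4 or 5 libraries, of which chance alone flags about 1 in 20.

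The effect of the knockout differed between the lines by the limma interaction term for 13 chains. The difference, CAKi-1 minus 786O on the log2 scale, was 7.0 for *COL6A3*, 4.96 for *COL14A1*, 4.41 for *COL9A2*, 3.53 for *COL16A1*, 3.08 for *COL12A1*, 2.77 for *COL7A1*, 2.70 for *COL6A1*, 2.48 for *COL6A2* and 1.53 for *COL1A1*. It was negative for *COL17A1* (-1.54), *COL28A1* (-1.33), *COL4A1* (-1.12) and *COL18A1* (-1.06). The values of the low chains moved with the pseudocount, *COL17A1* to -3.80 at 0.1 and -4.70 at 0.01, and *COL28A1* to -2.97 and -3.51. Adjusted p ranged from 4.2e-12 for *COL6A1* to 0.00324 for *COL18A1*.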

How the results depend on the processing

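The counts of chains called in CAKi-1 (9) and 786O (10) were the same with the replicate number as a block (replicate block: 9 and 10), although the numbers do not pair the libraries. The adjusted p alone gave 16 chains in CAKi-1, 13 higher and 3 lower, and 18 in 786O, 8 of them higher. The count of lower chains in CAKi-1 was 2 at a pseudocount of 0.1 or 0.01, 0 with the median shift of nearby genes removed or without A4KO libraries 1 and 4, and 0 to 1 with each library left out in turn. That of higher chains in 786O was 5 at either smaller pseudocount, 4 after quantile normalization, 1 with the shift of nearby genes removed, and 2 to 4 with each library left out. For chains near no change the sign turned. In CAKi-1, *COL4A5* was at -0.096 with the shift of nearby genes removed and -0.19 without A4KO libraries 1 and 4, and *COL27A1* at -0.00023 after quantile normalization and -0.059 without those libraries. With each library left out, *COL4A5* ranged from -0.062 to 0.092, *COL8A1* from -0.018 to 0.11 and *COL27A1* from -0.098 to 0.090. *COL27A1* in 786O was at -0.19 with the shift of nearby genes removed. Without its most abundant chain, the log2 ratio of a class sum was 0.0062 for fibrillar, 1.55 for beaded filament and 1.38 for multiplexin chains in CAKi-1, and 1.25 for basement membrane, -1.22 for beaded filament, -1.07 for short chain network, -2.63 for FACIT and 0.11 for multiplexin chains in 786O. Some of these remainders were under 1 TPM on average. The multiplexin remainder was *COL15A1* alone (0.359 TPM in WT and 0.937 TPM in A4KO of CAKi-1, 0.572 and 0.619 TPM in 786O). That of the short chain network in 786O was *COL8A2* (0.200 and 0.0401 TPM) and *COL10A1* (0.119 and 0.113 TPM). For the sum of all chains the log2 ratio was 0.83 without *COL4A2* in CAKi-1 and -0.034 without *COL6A3* in 786O, an alternative chosen after the data were seen. With each library left out, that of the short chain network in CAKi-1 ranged from -0.020 to 0.12, and the log2 ratio of *COL6A3* to *COL6A1* in CAKi-1 from -0.040 to 0.22, a check of the ratios chosen after the data were seen. Fits without a library of 786O rest on 2 libraries in that group. The cause of these changes was not tested. The read number per library is unknown, so the precision of chains near or under 1 TPM cannot be stated from counting.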

Other observations

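The CAKi-1 A4KO libraries 1 and 4 differed from the other 3 in both directions for the collagen chains, about as often as for all genes. Of the 16 chains named in full, 7 were higher in libraries 1 and 4 than in every one of libraries 2, 3 and 5, 5 were lower, and 4 overlapped. Of all 33 chains of the line 42.4% were higher and 21.2% lower in this way, against 33.9% and 26.1% of all genes, so the chains were near the background. For *COL7A1*, *COL14A1*, *COL16A1* and *COL1A1* libraries 1 and 4 lay further from WT than the other 3, and for *COL6A3* they lay nearer to WT. *COL6A1* was among the 4 that overlapped.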
